A study of Mus musculus with 4 samples.

Results

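The genes examined encode the respiratory chain and the ATP synthase of mitochondria, measured in the cerebral cortex of mice labelled Ndrg2-/- and wild type. Members were chosen by symbol alone: probes whose transcript accession mapped to a mouse gene starting with Nduf, Sdh followed by a to d, Uqcr, Cox4 to Cox8, or Atp5. That rule found 124 probes for 93 genes, of 27427 named probes for 20832 genes on the array. By complex there were 44 genes of complex I, 4 of complex II, 8 of complex III, 20 of complex IV and 17 of complex V, the ATP synthase. Of the 93 genes, 85 encode subunits or close relatives of subunits and 8 encode complex I assembly factors, the Ndufaf genes. For 92 genes (123 probes) 1 channel or both stood well above background on every array, and these were tested. The exception was Cox8c, a testis isoform of a cytochrome c oxidase subunit, which was not well above background in either channel of any array.

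Complexes I and II pass electrons from NADH and succinate to ubiquinone, complex III passes them on to cytochrome c, and complex IV hands them to oxygen. Complexes I, III and IV pump protons across the inner mitochondrial membrane, and complex V uses the returning protons to make ATP. Most subunits are encoded in the nucleus, imported and built into the complexes with the help of assembly factors that are absent from the finished enzyme. Neurons spend much of their energy on ion pumping and synaptic transmission and depend heavily on this pathway, while astrocytes, the cells that express most Ndrg2 in the brain, are more glycolytic. Subunits encoded by mitochondrial DNA were not analysed here.

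The animals were males of 3 months on a C57BL/6N background, and 200 ng of total RNA from the cerebral cortex was labelled. Each of 4 dual-colour arrays held 1 sample labelled Ndrg2-/- (a deletion of Ndrg2, an N-myc downstream-regulated gene), dyed with Cy5, and 1 sample labelled wild type, dyed with Cy3. Ratios are log2 of the sample labelled knockout over the sample labelled wild type, so a positive value is higher in the labelled knockouts, and ± is the SD over 4 arrays. The dyes were never exchanged and all arrays shared 1 slide and 1 scan, so dye and genotype cannot be told apart for any probe. Nothing in the labels tells single animals from pools, so the p-values rest on the spread of these samples, which may be partly technical.

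The targeted gene went against the labels. The log2 ratio of the Ndrg2 probe was 0.11, 0.37, 0.40 and 0.38 on arrays 1 to 4, a mean of 0.32 ± 0.14, higher in the samples labelled knockout (adjusted p = 0.0173; exact two-sided sign-flip test p = 0.125, the smallest that 4 arrays allow). Where that probe lies relative to the deleted sequence is not given in the sources used here, so whether it can check the labels is unknown, and the groups are called by their labels throughout. All 6 neuronal and all 6 astrocyte markers listed were well above background. Of 8 meningeal markers, 7 were called higher in the labelled knockouts (87.5%, against 9.12% of all genes). The list median was 0.50, with array medians of 0.58, 0.44, 0.26 and 0.68. The part of meningeal tissue in the ratios below was not tested. In whole cortex, fewer cells of a type and less RNA per cell cannot be told apart.

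Most respiratory chain and ATP synthase genes differed little between the labelled knockouts and the labelled wild types, and those that passed the test moved in both directions. At an adjusted p under 0.05 (limma, Benjamini-Hochberg over all kept probes), 8 of the 92 genes were called (8.70%), against 15.0% of all 15759 genes tested. Cox6a1, Uqcrh and Cox8a were higher, which is 3.26% of the members beside 9.12% of all genes. Sdhd, Cox7c, Atp5o, Atp5c1 and Ndufb3 were lower, 5.43% of the members beside 5.84% of all genes. The called sizes ran from 11.4% to 32.4% in linear terms, and no member passed 1.5 fold, a size that 0.273% of all genes reached. The called genes lie on different chromosomes: Ndufb3 on 1, Atp5c1 on 2, Uqcrh on 4, Cox6a1 on 5, Sdhd on 9, Cox7c on 13, Atp5o on 16 and Cox8a on 19. The 84 genes that were not called had mean log2 ratios between -0.16 and 0.15.

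**Figure D1:**
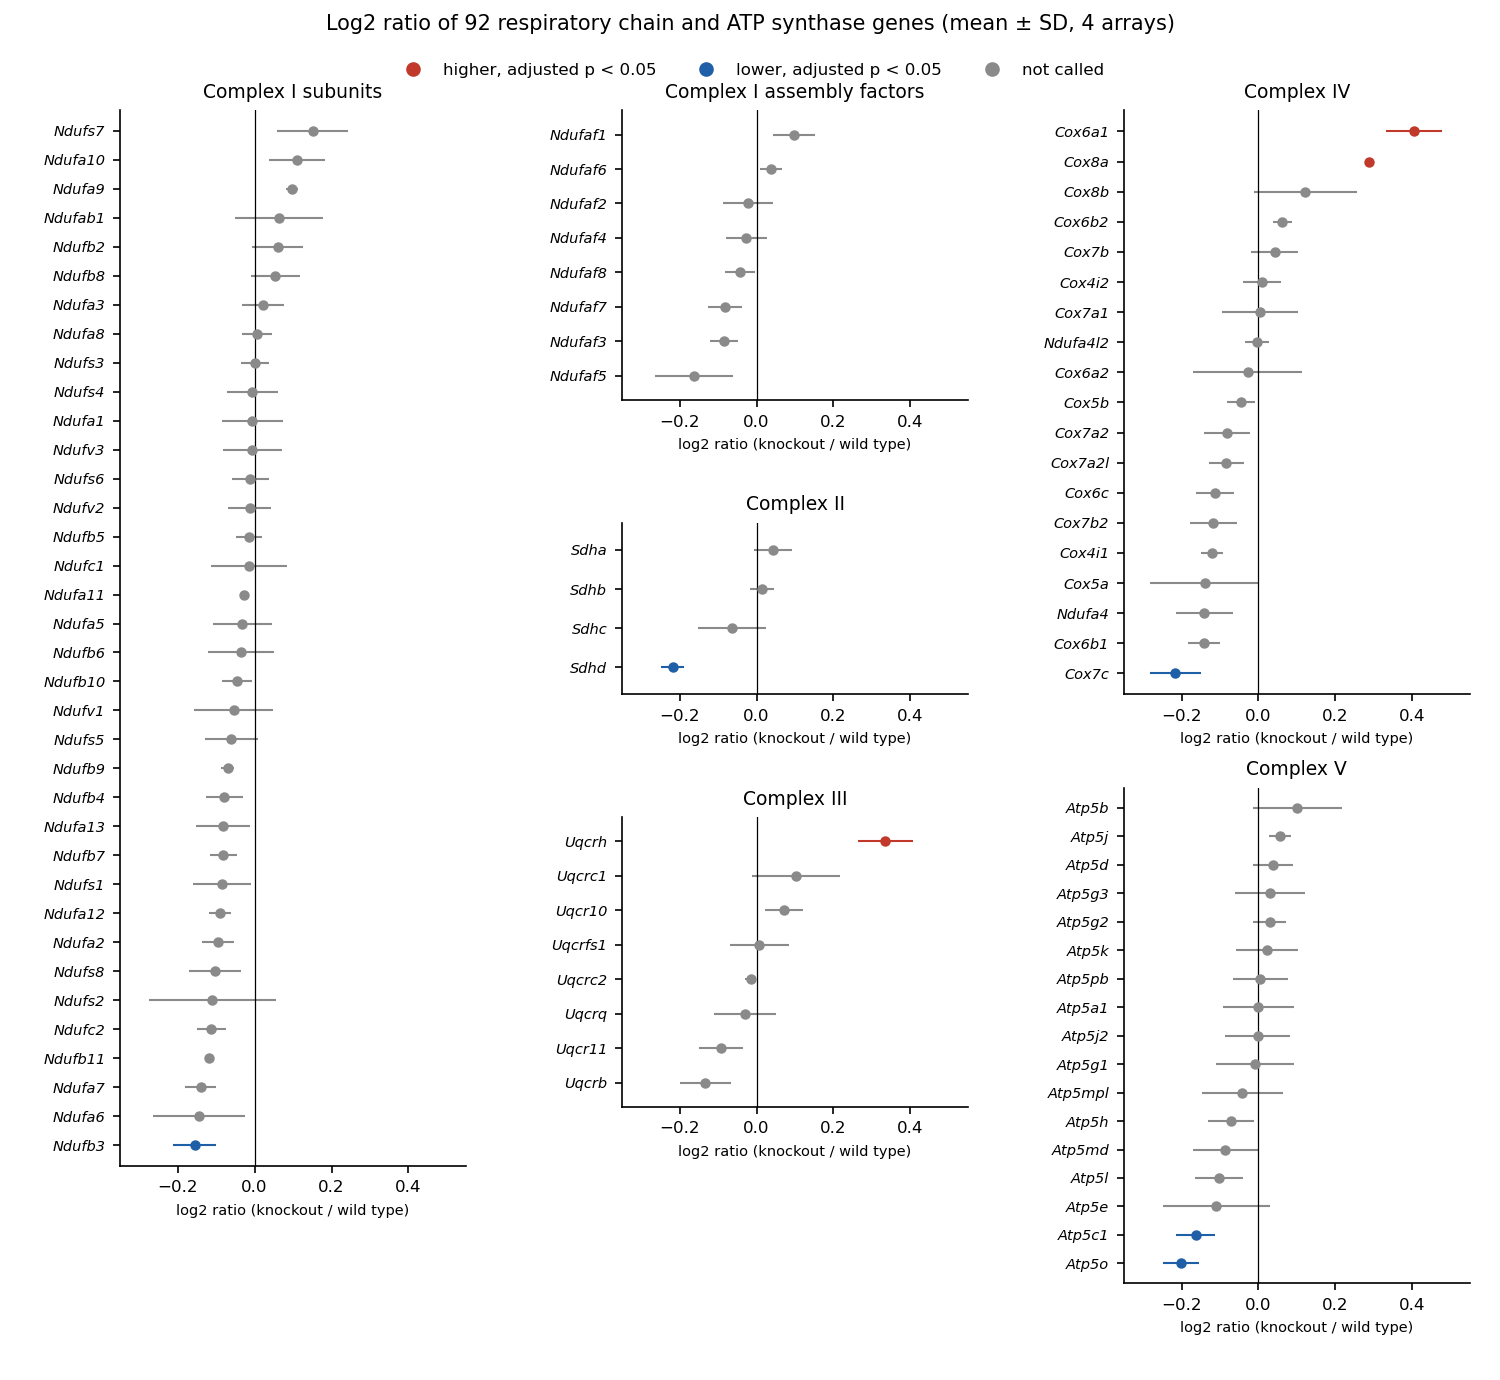
Mean log2 ratio (labelled knockout over labelled wild type, x axis) with the SD over 4 arrays (bars) for each of the 92 genes tested, by complex. Red points were called higher, blue points lower and grey points not called; 3 genes stand to the right between 0.29 and 0.40, and the rest lie between -0.22 and 0.15.

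As a group the members sat slightly below all genes. Their median log2 ratio was -0.028 (quartiles -0.091 and 0.022), against 0.015 for all genes tested, and 60 of 92 had a mean below 0. A ratio below 0 on all 4 arrays was found for 35 members (38.0%), against 18.6% of all genes, and a ratio above 0 on all 4 for 11 members (12.0%), against 24.1%. Because 65 of the 92 members were among the brightest 10% of genes, the same counts were taken there: 26 of those 65 were below 0 on all 4 arrays and 6 were above, where all 1576 genes there gave 29.0% below and 30.7% above. Of the same 65 members 3 were called higher and 4 lower, against 13.8% higher, 9.58% lower and 23.4% in either direction for all of those genes. The direction rests on removing the dependence of the ratio on brightness: with arrays centred on their median and no loess, the median of all genes was 0.28, that of the members 0.45, and only 13 of 92 members lay below the median of all genes, against 67 of 92 with loess. Overlap of the groups was read on intensities of single samples that were also quantile-normalized between arrays. In 12 members every labelled knockout lay below every labelled wild type (13.0%, against 6.25% of all genes), and in 4 every labelled knockout lay above (4.35%, against 9.06%). Among the brightest 10% of genes, 7 of the 65 members lay below in this way, beside 166 of all 1576 genes, a similar share. There, 3 of the 65 members lay above, beside 219 of the 1576 genes. Size and spread were close to each other, with a median absolute mean ratio of 0.067 and a median SD between arrays of 0.060 for a member. The median half-width of a member's 95% interval was 0.096.

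The position of the members was uneven across arrays. The median over the 92 genes was -0.017, 0.0091, -0.059 and -0.046 on arrays 1 to 4, while the median of all genes stayed between 0.011 and 0.017. Array 2 was thus the only one with a member median above 0. The order of the members was shared between arrays: Pearson's r of their ratios ran from 0.59 to 0.79 over the 6 pairs of arrays (n = 92 genes). The same coefficients were 0.41 to 0.71 over all 15759 genes. These describe genes, which are not independent replicates, and all arrays share the same dye on the same genotype.

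The 3 genes called higher are given with their promoter sequences because they are the members with the largest ratios. Each line holds the 300 bases from 250 before to 50 after the annotated start (RefSeq, GRCm38.p6), with capitals marking matches to motifs of factors known to act on respiratory chain genes. Cox6a1 lies at chr5:115348909-115349208, Uqcrh at chr4:116075021-116075320 and Cox8a at chr19:7217567-7217866, all on the minus strand.
Cox6a1: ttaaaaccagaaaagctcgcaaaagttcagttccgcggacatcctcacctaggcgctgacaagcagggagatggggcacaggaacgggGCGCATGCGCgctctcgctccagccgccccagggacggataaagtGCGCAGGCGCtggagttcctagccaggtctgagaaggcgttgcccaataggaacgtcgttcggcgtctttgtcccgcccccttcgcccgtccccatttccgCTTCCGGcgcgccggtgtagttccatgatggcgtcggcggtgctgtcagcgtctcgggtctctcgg
Uqcrh: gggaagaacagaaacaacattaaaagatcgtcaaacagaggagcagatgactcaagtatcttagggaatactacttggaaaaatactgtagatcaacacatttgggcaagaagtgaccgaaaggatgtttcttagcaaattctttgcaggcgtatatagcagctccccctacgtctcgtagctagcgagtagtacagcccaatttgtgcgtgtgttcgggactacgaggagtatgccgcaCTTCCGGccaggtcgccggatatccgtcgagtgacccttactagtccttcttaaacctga
Cox8a: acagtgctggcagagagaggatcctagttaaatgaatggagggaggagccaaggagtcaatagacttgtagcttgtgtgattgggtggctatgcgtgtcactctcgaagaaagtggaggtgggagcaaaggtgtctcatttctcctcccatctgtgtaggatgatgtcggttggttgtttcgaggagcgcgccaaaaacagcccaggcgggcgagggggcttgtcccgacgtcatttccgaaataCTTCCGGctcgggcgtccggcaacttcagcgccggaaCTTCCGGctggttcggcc

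The motifs, searched on both strands, were GCGC and TGCGC with any 1 base between them for NRF1, CCGGAAG for the ETS family that includes GABPA, AAGATGGC for YY1 and AAGGTCA for the estrogen-related receptors; none holds another. Promoters were at hand for 76 of the 93 members, including all 8 called genes. The NRF1 motif stood in 18 of the 76 (23.7%), against 4.78% of all 27025 promoters and 8.79% of the 12500 promoters of tested genes. The ETS motif also stood in 18 (23.7%), against 9.12% and 15.3%. The YY1 motif was in 10 (13.2%), against 2.88% and 4.06%, and the estrogen-related receptor motif in 8 (10.5%), against 4.66% and 3.55%. Among the called genes, the NRF1 motif was found in Cox6a1, Sdhd and Atp5o, the ETS motif in Cox6a1, Uqcrh, Cox8a and Sdhd, the estrogen-related receptor motif in Sdhd and the YY1 motif in none. Thus motif matches occurred in genes called in either direction, and the 3 promoters printed above all hold the ETS letters.

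**Figure D2:**
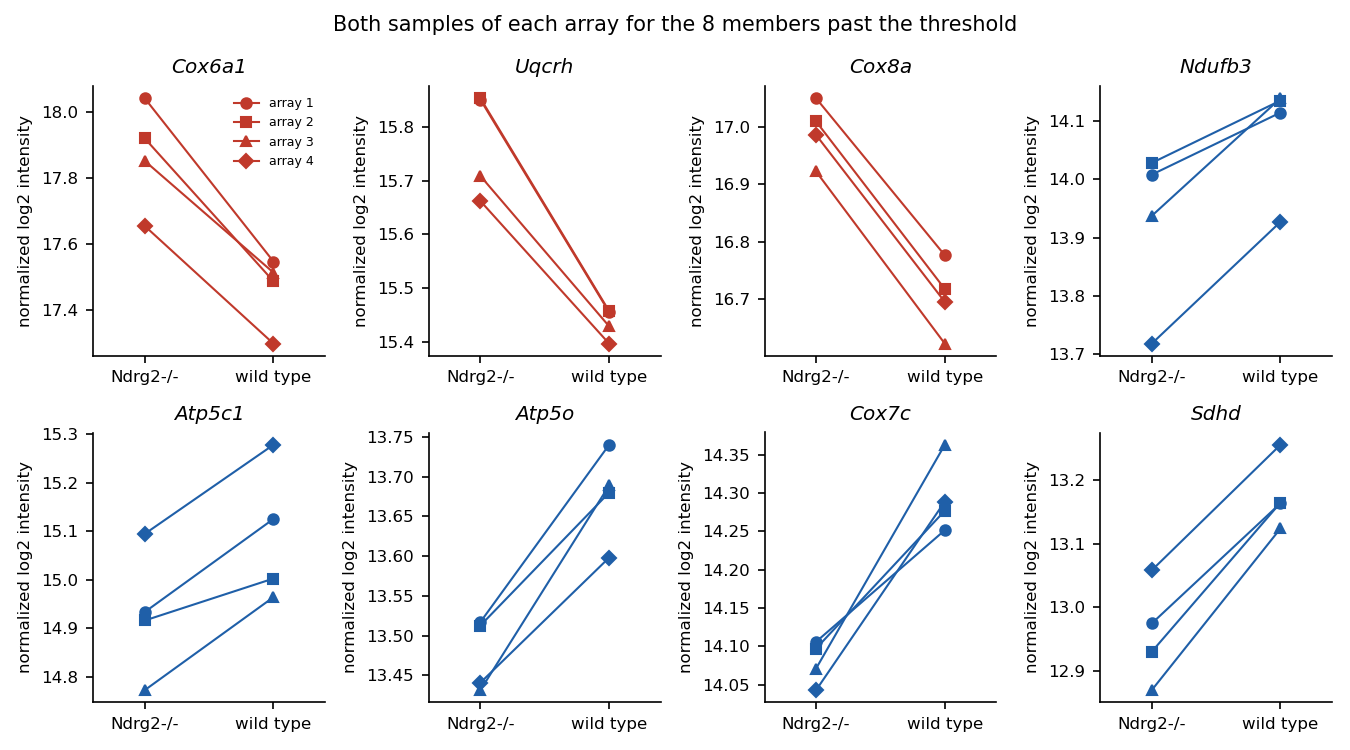
Log2 intensity (y axis, a separate range for each gene) of the Ndrg2-/- sample and the wild-type sample of each array, joined by a line, for the 8 genes called. Values are after background correction, loess and quantile normalization of mean intensity between arrays. Red genes were higher and blue genes lower in the samples labelled Ndrg2-/-; the line slopes the same way on all 4 arrays for each gene.

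Complex I, NADH dehydrogenase, held 1 called gene among 44 (2.27%, against 15.0% of all genes). Of its 36 subunits 27 had a mean below 0 and 14 were below 0 on all 4 arrays, while 3 were above 0 on all 4; the median was -0.033. The called gene was Ndufb3, a supernumerary subunit of the membrane arm. Intensities of single samples are given after background correction, loess and quantile normalization of mean intensity between arrays. The log2 intensity of Ndufb3 was 14.01, 14.03, 13.94 and 13.72 in the labelled knockouts, against 14.11, 14.14, 14.14 and 13.93 in the labelled wild types. The labelled knockout was the lower sample on each array, although the groups overlap, with Ndufb3 lowest on array 4 in both samples. The mean log2 ratio was -0.16 ± 0.057 (adjusted p = 0.0458), and leaving out any one array ended the call (adjusted p between 0.0917 and 0.160), as did the use of the scanner software's own background-subtracted and dye-normalized signals, called processed signals below (-0.14, adjusted p = 0.0981).

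The 7 core subunits of complex I, which hold the flavin, the iron-sulfur centres and part of the ubiquinone site, had a median of -0.055 with none called. They also held the member that came nearest to a call in the upward direction: Ndufs7, which binds the last iron-sulfur cluster before ubiquinone, had ratios of 0.22, 0.18, 0.19 and 0.015 on arrays 1 to 4 (mean 0.15 ± 0.092, adjusted p = 0.0730). Ndufs1, the largest subunit with several iron-sulfur clusters, had a mean of -0.085 (adjusted p = 0.223), and Ndufv1, which binds NADH, one of -0.055 (adjusted p = 0.480). The core therefore held values on both sides of 0. Among the 29 supernumerary subunits, which surround the core and stabilize it, 13 were below 0 on all 4 arrays and 2 were above.

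Several supernumerary subunits were low on every array without passing the test. Ndufb11, an X-linked membrane arm subunit, had ratios of -0.11, -0.11, -0.12 and -0.13, with the smallest spread of any member (SD 0.0070; adjusted p = 0.0722). Ndufa7 had a mean of -0.14 ± 0.040 (adjusted p = 0.0537) and Ndufc2 one of -0.11 ± 0.038 (adjusted p = 0.0930). Ndufa6 had a mean of -0.15 but ran from -0.29 on array 1 to -0.029 on array 2 (adjusted p = 0.108). Ndufa9 and Ndufa10 were the 2 supernumerary subunits above 0 on all 4 arrays, with means of 0.097 ± 0.015 (adjusted p = 0.119) and 0.11 ± 0.073 (adjusted p = 0.127).

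The 8 complex I assembly factors had a median of -0.035, beside -0.033 for the 36 subunits, and none was called. Their range ran from -0.16 for Ndufaf5, a hydroxylase of the core subunit Ndufs7, to 0.098 for Ndufaf1, a chaperone of the membrane arm. Ndufaf5 had ratios of -0.11, -0.060, -0.19 and -0.29 on arrays 1 to 4 (adjusted p = 0.0668), and Ndufaf1 had 0.17, 0.082, 0.10 and 0.037 (adjusted p = 0.145). Ndufaf3, Ndufaf5, Ndufaf7 and Ndufaf8 were below 0 on all 4 arrays, and Ndufaf1 and Ndufaf6 were above 0 on all 4. None of the 8 was among the brightest 10% of genes, which held 28 of the 36 subunits.

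Complex II, succinate dehydrogenase, is shared with the tricarboxylic acid cycle and consists of 4 nuclear-encoded subunits. Its membrane anchor Sdhd fell. Sdhd had a log2 intensity of 12.97, 12.93, 12.87 and 13.06 in the labelled knockouts, against 13.16, 13.16, 13.12 and 13.26 in the labelled wild types. Every labelled knockout lay below every labelled wild type. The mean ratio was -0.22 ± 0.031 (95% interval -0.31 to -0.13, adjusted p = 0.0155), the most negative of the 92. Without array 2 or array 3 the adjusted p was 0.0725 or 0.0676, and without array 1 or array 4 it was 0.0493 or 0.0352. The other anchor, Sdhc, had a mean of -0.064 (adjusted p = 0.380), with -0.19 on array 1. The catalytic subunits Sdha, which binds the flavin, and Sdhb, which holds the iron-sulfur clusters, had means of 0.043 (adjusted p = 0.499) and 0.015 (adjusted p = 0.824).

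Complex III, ubiquinol-cytochrome c reductase, was called in 1 of 8 genes (12.5%, against 15.0% of all genes). Uqcrh, the acidic hinge protein at the docking site of cytochrome c, rose. Its log2 intensity was 15.85, 15.85, 15.71 and 15.66 in the labelled knockouts, against 15.46, 15.46, 15.43 and 15.40 in the labelled wild types. All labelled knockouts were above all labelled wild types, and the gap was wider on arrays 1 and 2. The mean ratio was 0.33 ± 0.071 (95% interval 0.23 to 0.43, adjusted p = 0.00584). A second Uqcrh probe gave 0.25 (adjusted p = 0.0116), and the call held without any one array (adjusted p of at most 0.0429) and in the processed signals (0.26, adjusted p = 0.0379).

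The other complex III genes lay on both sides of 0. The core proteins Uqcrc1 and Uqcrc2, which have no redox centre, had means of 0.10 (adjusted p = 0.212) and -0.015 (adjusted p = 0.808), and Uqcrfs1, the Rieske iron-sulfur protein, had 0.0068 (adjusted p = 0.932). Uqcrb, a small subunit near the ubiquinone site, had -0.17, -0.061, -0.20 and -0.095 on arrays 1 to 4 (mean -0.13, adjusted p = 0.0769), and its 2 dimmer probes were called at -0.18 (adjusted p = 0.0385) and -0.16 (adjusted p = 0.0499). Uqcrb thus had a negative ratio at all 3 of its probes, in the same complex where Uqcrh was called higher at both of its probes. The median of the 8 genes was -0.0043, and by array it was 0.054, 0.056, -0.024 and -0.058, so that arrays 1 and 2 stood on the other side of 0 from arrays 3 and 4.

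Complex IV, cytochrome c oxidase, held the 2 remaining higher genes and 1 lower gene among 19 tested. The share called was 15.8%, near the 15.0% of all genes. Cox6a1, the widely expressed form of a regulatory subunit, rose most of all members. Its log2 intensity was 18.04, 17.92, 17.85 and 17.65 in the labelled knockouts, against 17.55, 17.49, 17.51 and 17.30 in the labelled wild types, without overlap. The mean ratio was 0.40 ± 0.072 (95% interval 0.30 to 0.50, adjusted p = 0.00289), and the call held without any one array (adjusted p of at most 0.0276). In the processed signals the ratio was 0.21 (adjusted p = 0.0426). Only 0.0381% of genes were brighter.

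Cox8a, the common form of the smallest subunit, had a log2 intensity of 17.05, 17.01, 16.92 and 16.99 in the labelled knockouts, against 16.78, 16.72, 16.62 and 16.70 in the labelled wild types. The groups did not overlap, and the ratio was nearly the same on every array (0.27, 0.29, 0.30 and 0.29). The mean was 0.29 ± 0.011 (95% interval 0.20 to 0.37, adjusted p = 0.00564). It was 0.11 in the processed signals, where the call was lost (adjusted p = 0.112), and 0.12 at the second Cox8a probe (adjusted p = 0.0778).

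Cox7c, a small membrane subunit, fell. Its log2 intensity was 14.11, 14.10, 14.07 and 14.04 in the labelled knockouts, against 14.25, 14.28, 14.36 and 14.29 in the labelled wild types, without overlap. The mean ratio was -0.22 ± 0.066 (adjusted p = 0.0206). Its 2 dimmer probes gave -0.12 (adjusted p = 0.0815) and -0.069 (adjusted p = 0.308), and the mean over its probes was -0.13 (adjusted p = 0.0570). Without array 1 the call held at an adjusted p of 0.0499, while it was lost without array 2 (0.0764), array 3 (0.0861) or array 4 (0.0514), and in the processed signals (-0.18, adjusted p = 0.0657).

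The 11 common subunits of complex IV had a median of -0.11, the lowest of the groups with more than 2 genes, and 7 of them were below 0 on all 4 arrays. Cox4i1, the common form of the subunit through which ATP inhibits the enzyme, had -0.15, -0.081, -0.13 and -0.13 on arrays 1 to 4 (mean -0.12, adjusted p = 0.0725), and it was called in the processed signals (-0.26, adjusted p = 0.0326). Cox6b1, a subunit facing the intermembrane space, had a mean of -0.14 ± 0.042 (adjusted p = 0.0529). Ndufa4, first assigned to complex I and now counted with complex IV, had -0.14 ± 0.074 (adjusted p = 0.0716), and Cox6c had -0.11 ± 0.050 (adjusted p = 0.0988). Cox5a, which binds a thyroid hormone metabolite, varied widely, from -0.26 on array 3 to 0.038 on array 2 (mean -0.14, adjusted p = 0.144). Cox7b and Cox5b had means of 0.042 and -0.045. The subunits of this one enzyme thus ran from -0.22 for Cox7c, the second lowest of the 92, to 0.40 for Cox6a1, the highest.

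Isoform partners of complex IV subunits could be set side by side. The common Cox6a1 had 0.40 and the heart and muscle isoform Cox6a2 had -0.028 ± 0.14 (adjusted p = 0.774). The common Cox8a had 0.29 and the muscle isoform Cox8b had 0.12 ± 0.13 (adjusted p = 0.184). Cox4i1 had -0.12 and the hypoxia-inducible Cox4i2 had 0.0094 (adjusted p = 0.895), while Cox6b1 had -0.14 and the testis isoform Cox6b2 had 0.062 (adjusted p = 0.291). In the Cox7a family the common Cox7a2 had -0.081, the supercomplex factor Cox7a2l had -0.083 and the muscle isoform Cox7a1 had 0.0035. Cox7b had 0.042 and the testis isoform Cox7b2 had -0.12 (adjusted p = 0.101), and Ndufa4 had -0.14 where its relative Ndufa4l2 had -0.0044 (adjusted p = 0.949). None of the 7 tissue isoforms tested was called, their median was 0.0035, and the differences between partners were not tested. None was among the brightest 10% of genes, which held 10 of the 11 common subunits.

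Complex V, the ATP synthase, had 2 lower genes and none higher among 17. The share lower was 11.8%, beside 5.84% of all genes and 9.58% of the brightest 10% of genes. Atp5o, the oligomycin sensitivity protein that joins the peripheral stalk to the catalytic head, fell. Its log2 intensity was 13.52, 13.51, 13.43 and 13.44 in the labelled knockouts, against 13.74, 13.68, 13.69 and 13.60 in the labelled wild types, without overlap. The mean ratio was -0.20 ± 0.047 (adjusted p = 0.0208), and the call held without array 4 (adjusted p = 0.0404) but not without array 1 (0.0721), array 2 (0.0776) or array 3 (0.0900).

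Atp5c1, the gamma subunit that turns inside the catalytic head, also fell. Its log2 intensity was 14.93, 14.92, 14.77 and 15.09 in the labelled knockouts, against 15.13, 15.00, 14.96 and 15.28 in the labelled wild types. The groups overlap, but the labelled knockout was the lower sample on every array. The mean ratio was -0.16 ± 0.051 (adjusted p = 0.0384), the second probe gave -0.14 (adjusted p = 0.0600), and leaving out any one array ended the call (adjusted p between 0.0810 and 0.135), as did the processed signals (adjusted p = 0.0647).

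The ATP synthase as a whole was centred near 0, with a median of -0.0023 over the 17 genes, Atp5o and Atp5c1 included. All 17 were among the brightest 10%. In the catalytic head neither Atp5b nor Atp5a1 was called, with 0.10 for Atp5b (adjusted p = 0.222), which holds the active sites, and 0.000010 for Atp5a1 (95% interval -0.11 to 0.11). The 3 genes of the rotating c ring encode the same mature protein, and their means were -0.0094 for Atp5g1, 0.029 for Atp5g2 and 0.030 for Atp5g3. In the peripheral stalk Atp5h had -0.072, Atp5pb 0.0044 and Atp5j 0.056, beside -0.20 for Atp5o. Atp5e, the epsilon subunit, had -0.11, which rested largely on array 4 at -0.31 (adjusted p = 0.232). The median of complex V by array was 0.0028, 0.025, -0.055 and -0.11, the widest spread among the complexes.

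**Figure D3:**
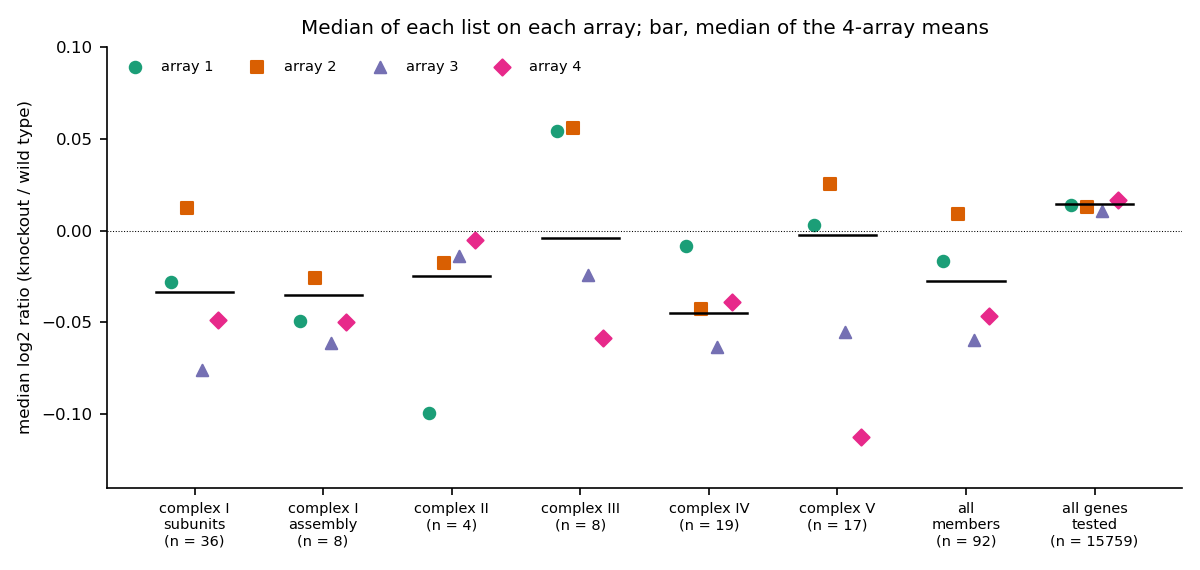
Median log2 ratio (labelled knockout over labelled wild type, y axis) of each group of genes on each of the 4 arrays (symbols), with the median of the 4-array means as a bar. The medians of all genes tested lie between 0.011 and 0.017, while those of complex V run from -0.11 to 0.025.

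The higher calls lay at the bright end of the array. In the brightest percent of genes 52.5% were called higher and 2.53% lower. Among the 37 genes with a mean log2 intensity of 17 to 18, 34 were called higher and the median ratio was 0.43, and Cox6a1, the only member there, lay below that median. Among 91 genes between 16 and 17 the median was 0.14 and 42.9% were called higher, with Cox8a the only one of 4 members called. Between 15 and 16 the median of 248 genes was 0.022 and 40 were called higher, so Uqcrh, at 0.33, stood further from its neighbours in brightness. Below that, between 14 and 15, the 26 members had a median of -0.081, beside -0.012 for all 528 genes, and 20 of the 26 lay below it. Between 15 and 16 the 26 members had a median of -0.031 and 19 lay below that of all genes. Over the 92 members brightness and ratio were nearly unrelated (Pearson's r = 0.060, Spearman's rho = 0.0041, as a description across genes).

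**Figure D4:**
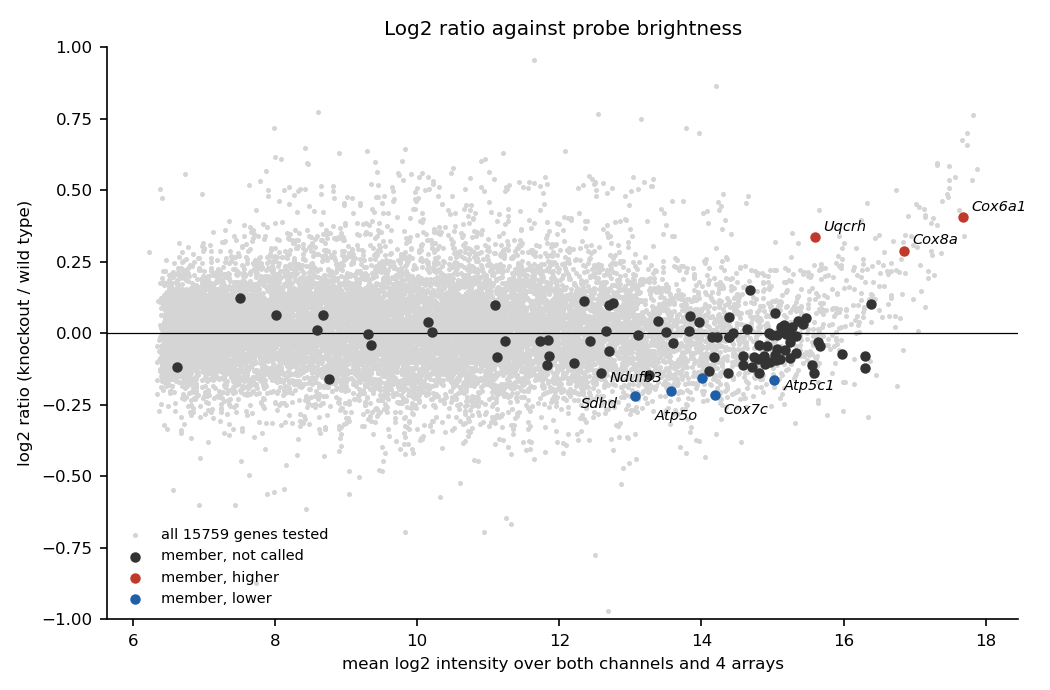
Mean log2 ratio (labelled knockout over labelled wild type, y axis) against mean log2 intensity over both channels and 4 arrays (x axis) for all 15759 genes (grey) and the 92 members (black, not called; red, higher; blue, lower). Ratios climb at the bright end, where Cox6a1 and Cox8a lie; 5 genes beyond an absolute ratio of 1 are outside the axis.

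Where a gene had several tested probes, these often gave different sizes. There were 24 such members with 31 further probes, of which 24 had the sign of the brightest probe and 16 had a lower ratio (51.6%). Over all genes 3059 of 5005 further probes had the sign of the brightest probe and 54.5% had a lower ratio. Over all 123 member probes 15 were called (12.2%), against 12.9% of all 27664 kept probes: 4 were higher (3.25%, against 7.41%) and 11 lower (8.94%, against 5.54%). Over all genes 452 of the 5005 further probes were called, and of the 31 further member probes 7 were called. Besides Uqcrh and Uqcrb, these were in Atp5j2 (-0.25, adjusted p = 0.0113, with -0.0023 at its brightest probe), Atp5g2 (-0.20, adjusted p = 0.0255, with 0.029), Ndufa5 (-0.18, adjusted p = 0.0267, with -0.032) and Uqcrq (-0.17, adjusted p = 0.0406, with -0.030). The lower calls at these 4 genes thus rest on 1 probe each.

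**Figure D5:**
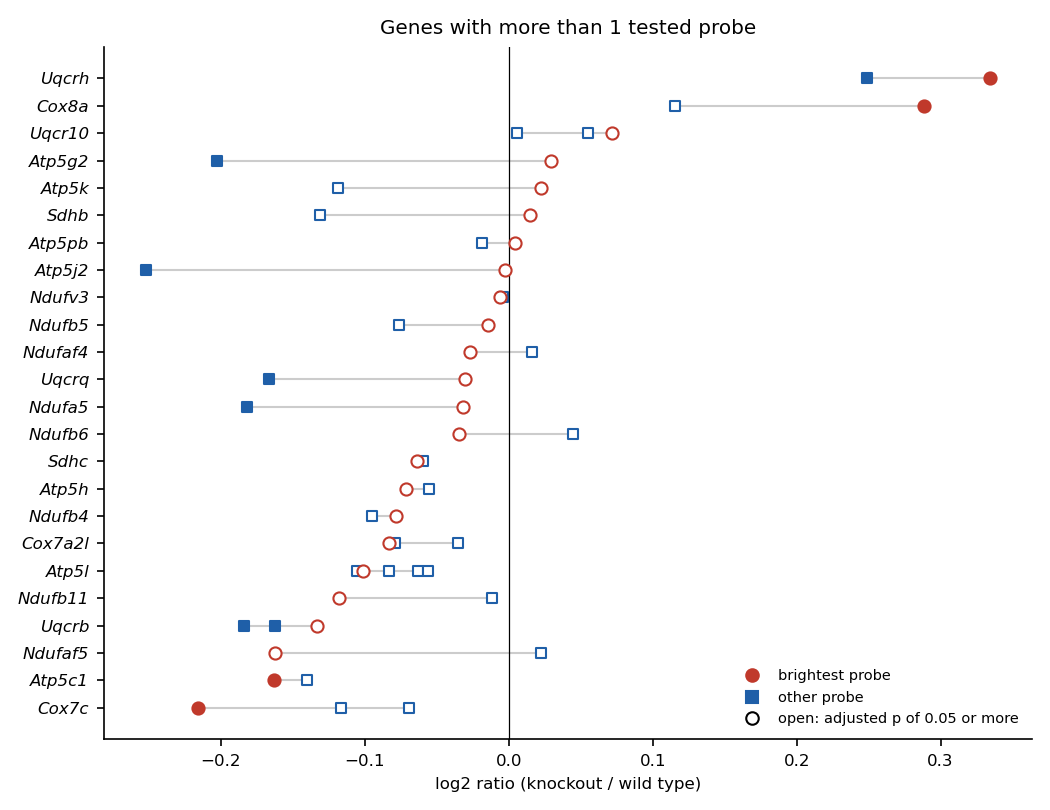
Log2 ratio (labelled knockout over labelled wild type, x axis) of the brightest probe (red circle) and the other tested probes (blue square) of the 24 members with several tested probes, joined by a line. Filled symbols were called and open symbols not; both Uqcrh probes are filled, and in Atp5j2 a filled probe at -0.25 faces an open one at -0.0023.

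Of 42 assembly factors outside the symbol rule that were tested, 8 were lower (19.0%, against 5.84% of all genes) and 1 was higher (2.38%, against 9.12%). Their median was -0.045, against 0.015 for all genes, and 4 were among the brightest 10%; the difference from the subunits was not tested. The higher gene was Coa5, a complex IV assembly factor, at 0.35 ± 0.045 (adjusted p = 0.00356). The largest falls were those of Foxred1, which acts in complex I assembly (-0.22 ± 0.082, adjusted p = 0.0237), and Dmac1, a complex I membrane arm factor (-0.19 ± 0.018, adjusted p = 0.0206). The other lower genes were Cox11, Cox14 and Cmc1 of complex IV, Uqcc2 and Uqcc3 of complex III, and Fmc1 of complex V. With the 8 Ndufaf genes, 1 of 50 assembly factors was higher and 8 were lower.

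For the neighbouring pathways the share of genes called is read beside the 15.0% of all genes called in either direction. Of 12 electron carriers and transporters tested, 1 was called (8.33%): the outer membrane channel Vdac3 was lower (-0.16 ± 0.024, adjusted p = 0.0332). Cytochrome c, Cycs, had -0.12 (adjusted p = 0.139), and the ATP synthase inhibitor Atpif1 had 0.14 (adjusted p = 0.0552). Of 13 genes of coenzyme Q synthesis 3 were called (23.1%): the hydroxylase Coq6 (-0.20, adjusted p = 0.0226) and Pdss2 (-0.16, adjusted p = 0.0317), which helps make the side chain, were lower and the methyltransferase Coq5 was higher (0.18, adjusted p = 0.0257). Of 16 tricarboxylic acid cycle genes 2 were called (12.5%): fumarase, Fh1 (-0.19, adjusted p = 0.0235), and Dlat of the pyruvate dehydrogenase complex (-0.16, adjusted p = 0.0491) were lower.

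Among 13 regulators of mitochondrial biogenesis 2 were called (15.4%), both higher: Polrmt, the mitochondrial RNA polymerase (0.20, adjusted p = 0.0208), and Gabpb1, the partner of the ETS factor GABPA (0.16, adjusted p = 0.0335). The coactivator Ppargc1a had 0.020 (adjusted p = 0.810), Gabpa 0.0017 (adjusted p = 0.986) and Nrf1 0.20 ± 0.18 (adjusted p = 0.0904). None of 13 genes of general mitochondrial mass and none of 6 uncoupling and alternative genes was called, with medians of -0.048 and 0.021. The 6 neuronal markers had a median of -0.0072 and lay on both sides of 0. Snap25 (0.20) and Rbfox3 (0.16) were called higher. Syt1 (-0.18, adjusted p = 0.0507), Tubb3 (-0.10), Map2 (-0.056) and Stmn2 (0.041) were not called. The 6 astrocyte markers had a median of 0.15 with none called. Muscle markers, relevant to the muscle isoforms, had 4 genes tested and 1 lower, Myh7 (-1.31, adjusted p = 0.00023). Acta1 (0.093), Myl2 (0.057) and Tnnt2 (-0.093) were not called.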

How the data were processed

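RNA of 4 samples labelled Ndrg2-/- (Cy5, red) and 4 labelled wild type (Cy3, green) was measured on 4 dual-colour arrays. The members and gene lists were chosen with earlier results of these data known.

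Images were extracted by the authors in Agilent Feature Extraction: the submitters' processing notes give version 10.7.3.1, the file headers 11.0.1.1. Per the file headers, raw intensity is the median pixel signal of a spot, with its local background beside it, and the log10 ratio is that of red over green processed signal after background subtraction and dye normalization. The authors also deposited log2 values, which by their values are the log2 of that ratio.

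Ratios were computed from raw intensity with R 4.3.3 and limma 3.58.1: normexp with offset 50, loess with control spots at weight 0, outlier spots left out and replicate spots averaged. Intensities of single samples were then quantile-normalized between arrays on mean intensity (limma, Aquantile), which leaves the ratios unchanged. The overlap of groups and the alternative without block rest on these intensities. The median spot signal was 94 to 122 in green and 283 to 335.5 in red, over backgrounds of 22 to 26 and 87 to 96; the number of arrays limits the precision. Of 39429 probes, 27664 were kept, with 1 channel or both well above background on every array. Symbols came from the probe's transcript accession and RefSeq annotation (GRCm38.p6; the array annotation uses mm9), and each of 15759 genes took its brightest probe. An intercept-only limma fit (lmFit, eBayes) gave p-values, which were adjusted over the 27664 probes (Benjamini-Hochberg) and called under 0.05. Each ratio pairs the samples of 1 replicate number, as they share an array, so the fit holds the replicate block already. In a simulation, 0 of 59 genes given a true absolute log2 ratio of 0.2 were called with the right sign. At 0.4 it was 46 of 65 genes, and at 0.8 it was 72 of 76. The simulation left 15559 of the 15759 genes unchanged, whereas 2357 genes were called in the data, so its Benjamini-Hochberg threshold was stricter. Its rates therefore do not give the detection rate in the data, where 5 members with ratios from -0.22 to -0.16 were called. The lack of a call at about 0.2 or below still does not show that a gene was unchanged.

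Alternatives were the processed signals, the deposited table, median centring, no background correction, 2 other filters, the mean over probes, an intensity trend, no block and leaving out each array. All members may be named; full statistics went to up to 6 called members of a complex in each direction and to isoform families, and other lists give up to 3 called genes by size or 1 of any size. Members near the threshold, and some further genes of the other lists, were described after their values were seen.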

Additional observations from a re-analysis of the deposited data

Results flagged for a closer look

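In 4 of 102 sets of 4 array values that were examined, 1 array stood far from the other three by Dixon's gap ratio, above its 95% critical value, and chance gives about 1 such set in 20. For Ndufb5, a complex I subunit, array 2 had a log2 ratio of 0.036 while the mean was -0.014. For Atp5c1 array 2 had -0.086, where arrays 1, 3 and 4 had -0.19, -0.19 and -0.18. For Ndrg2 array 1 had 0.11, beside a mean of 0.32. The median of complex II was -0.099 on array 1 and between -0.017 and -0.0049 on the other arrays. Sdhc had -0.19 on array 1, against -0.045, -0.017 and 0.0011 on arrays 2 to 4. Sdhd was low on every array, with -0.19, -0.23, -0.25 and -0.20 on arrays 1 to 4.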

How the results depend on the processing

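Loess decided the direction. With median centring in place of loess, which leaves the climb of the ratio with brightness in place, the median of all genes was 0.28, that of the members 0.45, and 90 members were called, 89 higher and 1 lower (43 in complex I, 4 in II, 8 in III, 18 in IV and 17 in V), with 106 calls in the supporting lists and 37 among assembly factors outside the rule. The sign turned there for Atp5c1 (0.37), Atp5g1 (0.54), Atp5o (0.25), Cox4i1 (0.49), Cox6a2 (0.35), Cox6b1 (0.26), Cox7a2 (0.43), Cox7a2l (0.43), Cox7c (0.27), Ndufa4 (0.35), Ndufa4l2 (0.27), Ndufb3 (0.32), Sdhd (0.21), Foxred1 (0.15), Dmac1 (0.17), Vdac3 (0.32), Coq6 (0.19), Pdss2 (0.064), Fh1 (0.22) and Dlat (0.22).

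With the processed signals, and likewise with the deposited table, 5 members were called in place of 8, 3 of them lower, with 0 in complex I and 1 in complex V. The supporting lists then had 6 calls in place of 17, the assembly factors 4 in place of 9, and Ndrg2 had 0.26 (adjusted p = 0.0663). Without the filter on dim probes 3 members were lower, with 0 in complex I and 1 in complex V. The mean over all probes gave 2 calls in complex I and 2 in complex III. An intensity trend with a robust prior gave 17 called members, 13 lower, with 5 in complex I, 2 in complex III and 7 in complex IV. Without the replicate block 4 members were called, 1 lower, with 0 in complexes I, II and V, 4 in the supporting lists and 3 among assembly factors, and Ndrg2 kept 0.32 (adjusted p = 0.0600).

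Leaving out 1 array gave 3 to 6 called members, 3 to 4 higher and 0 to 2 lower, with 0 to 1 in each of complexes I, II and V. It gave 1 to 10 calls in the supporting lists, 1 to 6 among assembly factors, a member median of -0.044 to -0.013 and 0.29 to 0.39 for Ndrg2. Of the 8 called members, 8 were still called with the same sign without background correction, with the filter in both channels and with the intensity trend. The mean over probes kept 7 and the lack of a filter 6. Only 4 were kept with the processed signals, 4 with the deposited table, 4 without the replicate block and 3 with median centring. Leaving out array 1, 2, 3 or 4 kept 5, 3, 3 or 5 of the 8. The causes of these differences, beyond the construction of each alternative, were not tested. With 4 arrays the median half-width of a member's 95% interval was 0.096, and the smallest called difference of a member was 0.16 on the log2 scale.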
